A study of Mus musculus with 14 samples.

Results

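The genes described here encode Fc receptors, which bind the constant part of antibodies, and the myeloid receptors, adaptors and kinase that signal in the same way. They were chosen by symbol and number 10 of the 52459 genes in the count table: Tyrobp, Fcer1g, Fcgr1, Fcgr2b, Fcgr3, Fcgr4, Trem2, Clec7a, Syk and Lilr4b. RNA-seq was done on dispersed islets of the pancreas of C57BL/6J male mice aged 7 months, after flow sorting of the cells by how active their acidic beta-galactosidase was. High activity of this lysosomal enzyme is a common mark of senescent cells. The cells with activity gave 7 libraries, called positive here, and those without it 7, called negative, and each group is numbered 1 to 7. The mice carried no transgene or drug treatment that the labels name, and the sort used enzyme activity and no surface protein of immune cells.

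Many immune receptors have no signalling part of their own. They pair with a small adaptor, such as the products of Tyrobp (DAP12) or Fcer1g (the common gamma chain of Fc receptors). The adaptor carries an immunoreceptor tyrosine-based activation motif, ITAM, which Src family kinases phosphorylate and to which the kinase Syk then binds. Inhibitory receptors such as Fcgr2b carry an inhibition motif instead, ITIM, which recruits phosphatases. In tissues these genes are known mainly from macrophages, microglia, neutrophils and dendritic cells, and islets hold resident macrophages that lie along their blood vessels.

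The transcription factor PU.1, product of Spi1, is the master regulator of the myeloid lineage, and its binding sites centre on the letters GAGGAA. These letters were searched on both strands (as GAGGAA or its reverse complement TTCCTC, which cannot overlap each other) in RefSeq promoter windows of the mouse build GRCm38.p6. A window runs from 250 bases before to 50 bases after a transcript's start. Of the 10 genes, 9 had a window and Tyrobp had none. The letters stood in 8 of the 12 windows, belonging to 6 of the 9 genes, against 28.3% of 32851 windows and 31.3% of 27025 genes in the whole table. The windows of Fcgr3 overlap each other, as do those of Clec7a, so the count of windows includes the same letters again. Matches began between 6 and 96 bases before the start. The windows below are 4 examples with the letters, in capitals, and Fcer1g, which has none, as is true of Fcgr2b and Lilr4b (not shown). Each is written 5′ to 3′ on the strand of its gene.
Fcgr1, chr3:96293920-96294219, minus strand, letters 55 bases before the start: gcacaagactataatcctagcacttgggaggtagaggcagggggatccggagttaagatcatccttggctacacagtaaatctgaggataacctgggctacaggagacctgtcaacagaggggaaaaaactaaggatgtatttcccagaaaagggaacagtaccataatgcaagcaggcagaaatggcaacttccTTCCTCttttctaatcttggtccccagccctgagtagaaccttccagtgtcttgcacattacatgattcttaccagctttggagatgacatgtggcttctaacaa
Fcgr3, chr1:171059354-171059653, minus strand, letters 6 bases before the start: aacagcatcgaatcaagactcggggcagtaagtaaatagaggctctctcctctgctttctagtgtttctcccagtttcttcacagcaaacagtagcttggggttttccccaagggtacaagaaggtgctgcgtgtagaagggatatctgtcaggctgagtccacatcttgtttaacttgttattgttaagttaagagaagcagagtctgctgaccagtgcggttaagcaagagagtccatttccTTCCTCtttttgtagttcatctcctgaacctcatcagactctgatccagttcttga
Trem2, chr17:48346151-48346450, plus strand, letters 40 bases before the start: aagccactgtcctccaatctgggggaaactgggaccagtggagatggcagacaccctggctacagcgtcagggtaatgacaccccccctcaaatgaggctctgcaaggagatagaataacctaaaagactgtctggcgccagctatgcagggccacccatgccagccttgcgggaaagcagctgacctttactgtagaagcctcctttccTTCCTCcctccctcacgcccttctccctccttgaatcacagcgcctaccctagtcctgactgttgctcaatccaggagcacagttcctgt
Clec7a, chr6:129472730-129473029, minus strand, letters 96 bases before the start: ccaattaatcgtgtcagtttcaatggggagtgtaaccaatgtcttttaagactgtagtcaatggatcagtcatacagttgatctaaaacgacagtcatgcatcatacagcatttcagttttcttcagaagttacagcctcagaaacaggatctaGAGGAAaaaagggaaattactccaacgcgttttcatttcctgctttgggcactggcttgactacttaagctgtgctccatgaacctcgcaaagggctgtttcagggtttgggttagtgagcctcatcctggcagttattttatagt
Fcer1g, chr1:171234300-171234599, minus strand, no match: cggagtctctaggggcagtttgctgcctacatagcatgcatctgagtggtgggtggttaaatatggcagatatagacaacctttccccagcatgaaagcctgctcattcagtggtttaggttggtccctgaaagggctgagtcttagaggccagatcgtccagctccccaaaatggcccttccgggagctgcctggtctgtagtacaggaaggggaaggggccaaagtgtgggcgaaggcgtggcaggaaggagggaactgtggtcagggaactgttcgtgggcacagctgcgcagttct
Fcgr4 and the second window of Syk also held the letters, 22 and 9 bases before the start. Fcgr2b and Lilr4b had no match. A match is a run of letters and not a measured binding site, and a part of PU.1 in these results was not tested.

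Total counts ranged from 15585779 to 24577025 in positive and from 11060144 to 23045934 in negative libraries. Of the 52459 genes, 16350 had enough counts to be tested. The fit across all of them called 1047 genes (6.40%) higher and 266 (1.63%) lower in positive libraries, where a gene was called at an adjusted p below 0.05 (edgeR's quasi-likelihood test, Benjamini-Hochberg adjustment over all genes tested). Libraries 6 and 7 of the positive group stood apart in the genes described here. The 16 macrophage markers summed to 633 counts per 1000000 counts of the library (CPM) in positive 6, 451 in positive 7 and 76.7 to 109 in positive 1 to 5, against 17.5 to 24.1 in the negative libraries. Other marker sums set the same libraries apart. Endothelial markers summed to 1187 and 1139 CPM in positive 6 and 7 and 345 to 887 in positive 1 to 5, against 62.7 and 57.1 in negative 6 and 7 and 4.38 to 7.3 in negative 1 to 5. Pericyte markers, of which 5 of 6 tested were called higher (3 without libraries 6 and 7), summed to 114 and 118 CPM in positive 6 and 7, 38.4 to 83.9 in positive 1 to 5 and 1.42 to 29.5 in negative libraries. Acinar markers summed to 29.5 to 874 CPM in positive and 144 to 1444 in negative libraries, and 4 of 10 were called lower. The calls numbered 9 with the replicate block, 0 without libraries 6 and 7, 2 when negative 1, positive 6 or positive 7 was left out, and 7 when positive 1 was. The part of these markers in the results below was not tested. Markers of beta cells (10 genes) gave no call in either direction, with a median log2 fold change of −0.25, and 5 of them were called lower with the replicate number as a block.

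In each of the 7 pairs of libraries of equal number, all 10 genes were higher in positive. In 9 of the 10, every positive library lay above every negative one, and Fcgr1 was the exception. Of the 31875 genes with at least 1 count, 2.29% had such groups, and of the 16350 tested 3.50% did. Only 6 of the 10 genes passed the filter on low counts, and all 6 were called higher, with a median log2 fold change of 6.03 against 0.00 over all genes tested. Since a gene this low in negative libraries passes only through its positive libraries, these values describe the 6 and not all 10. Those that did not pass were the 4 IgG receptors, Fcgr1, Fcgr2b, Fcgr3 and Fcgr4. In the fit that kept every gene with at least 1 count, 9 of the 10 were called higher, where 3.94% of 31875 genes were higher and 0.856% lower. Fcgr4 was not (adjusted p = 0.0864, edgeR). It was called when the replicate number entered that fit as a block (adjusted p = 6.9e-05), where 6.30% of all genes were called higher. DESeq2's Wald test called all 10 higher, and 7.17% of all genes. Without libraries 6 and 7, all 6 genes that passed the filter were called higher, where 3.28% of all genes were higher and 0.275% lower. In the fit of genes with at least 1 count 8 of the 10 were then called, where 2.21% of all genes were called higher. In these sorted pools, more cells of a type and more RNA per cell cannot be told apart.

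**Figure D1:**
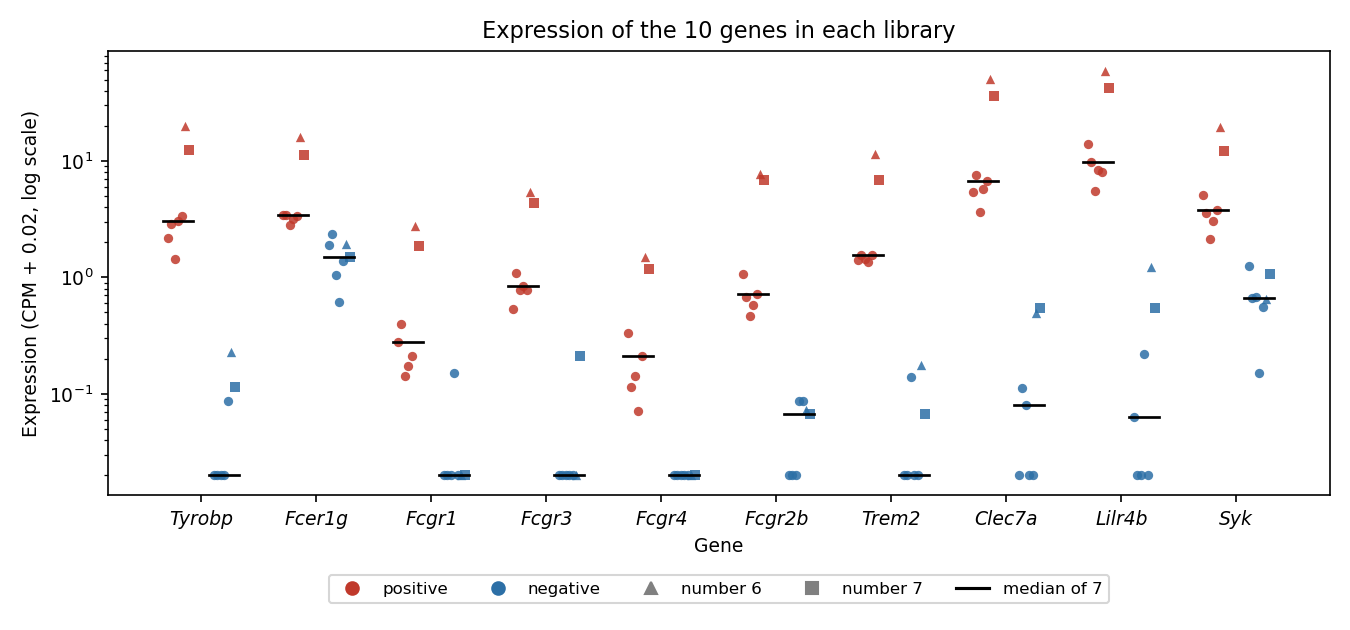
CPM of each gene in each library on a log scale, positive left and negative right, with a small constant (on the axis label) added so that libraries with no count can be drawn. Each mark is a library, triangles and squares are numbers 6 and 7, and bars are medians. Every gene is highest in positive 6 (Lilr4b 59.2 CPM) and second highest in positive 7, and only Fcgr1 has a negative library above a positive one.

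Tyrobp (GRCm38, chromosome 7, 30413760 to 30417585, plus strand) encodes DAP12, the ITAM adaptor that Trem2 and many other receptors need to signal. It had 1.41 to 20.1 CPM in positive libraries, median 3.03, and 0 to 0.211 CPM in negative libraries, median 0. The groups were far apart: 818 counts came from positive and 7 from negative libraries, and 4 negative libraries had no count. The log2 fold change was 6.65 ± 0.92 (SE, n = 7 each, adjusted p = 0.00032, edgeR). Counts were also pooled over each group and divided by its summed library totals. The ratio of these was 105, with a 95% exact interval of 50.6 to 261 for counting error alone. Hcst, which encodes the related adaptor DAP10 and lies 127 bases away on the opposite strand, had a median of 1.03 CPM in positive and 0.768 in negative libraries and was not called (0.22 ± 0.21, adjusted p = 0.586, edgeR).

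Fcer1g (chromosome 1, 171229572 to 171234365, minus strand) encodes the gamma chain, the ITAM adaptor of the activating Fc receptors. Positive libraries held 2.79 to 16.1 CPM of it, median 3.38, and negative libraries 0.596 to 2.32 CPM, median 1.47. The groups did not overlap, but the negative libraries were not empty: each had 9 to 44 counts, 182 in all, against 797 in the positive libraries. Its log2 fold change of 2.04 ± 0.46 (SE, n = 7 each, adjusted p = 0.0108, edgeR) was the smallest of the 6 genes tested. Without the 4 libraries numbered 6 and 7 it was 1.17 ± 0.29 (adjusted p = 0.0448, edgeR).

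The balance of the adaptors differed between the groups. In positive libraries 0.801 to 1.97 counts of Fcer1g came with each count of Tyrobp, with a median ratio of 1.03. In negative libraries 26.0 did over all 7 libraries together. The mean log2 ratio, with 0.5 added to each count, was 0.20 ± 0.46 in positive and 4.57 ± 1.23 in negative libraries (SD, n = 7 each). The ratio was lower in the positive library in 7 of 7 pairs, with a mean difference of −4.36. An exact two-sided permutation test that shuffled all libraries freely gave p = 0.000583, the smallest it can give. With exchange only within pairs of equal number, p was 0.0156, the smallest of 128 arrangements, and 0.0312 adjusted (exact permutation test). Adjusted over the 4 ratios tested, the p of the free shuffle was 0.00117. Without libraries 6 and 7 the difference was −4.68 (adjusted p = 0.0159, exact permutation test, free shuffle). The denominator in the negative group is 7 counts of Tyrobp, and 1 without libraries 6 and 7, so the size of the ratio there is loosely fixed. Negative 1 to 4 had no count of Tyrobp, so their ratios depend on the 0.5 added. With 1 added to each count instead, the difference was −3.71 (adjusted p = 0.00117, exact permutation test).

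The IgG receptors come as activating and inhibitory forms. Fcgr1 (chromosome 3, 96282909 to 96293969, minus strand) is the high-affinity receptor. Fcgr3 and Fcgr4 bind antibody in complexes, and all of these signal through the gamma chain. Fcgr2b, with an ITIM, holds them back. Fcgr2b (170958617 to 170976547), Fcgr4 (171018920 to 171029761) and Fcgr3 (171051174 to 171064935) lie in a row on chromosome 1, Fcgr4 on the plus strand and its neighbours on the minus strand.

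Fcgr3 had 0.518 to 5.43 CPM in positive libraries, median 0.821, and 0 to 0.19 CPM in negative libraries. All 4 of its negative counts came from negative 7, against 250 counts in the positive group. Its log2 fold change was 5.60 ± 0.98 (adjusted p = 0.00379, edgeR, genes with at least 1 count). The ratio of pooled counts over pooled library totals was 56.0 (95% exact interval 21.6 to 207). Fcgr2b had 0.444 to 7.71 CPM in positive libraries, median 0.7, and 0 to 0.0674 CPM in negative libraries, median 0.0475. It was likewise separated, with 321 counts in positive and 4 in negative libraries, a log2 fold change of 5.97 ± 1.15 (adjusted p = 0.00832, edgeR, genes with at least 1 count) and a ratio of 71.9 (27.8 to 266). Without libraries 6 and 7 the fit gave 6.85 for Fcgr3 and 4.40 for Fcgr2b, both called. Fcgr3 then had no negative count, so its fitted size depends on the prior count. Transcripts of the pair share sequence: 9.58% of all 50-base windows of Fcgr3 and 6.95% of those of Fcgr2b also occur in another gene's transcripts, 166 of them in each other, so reads there are uncertain.

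Fcgr1 had 0.121 to 2.74 CPM in positive libraries, median 0.259, and 0 to 0.132 CPM in negative libraries. The 2 negative counts were both in negative 4, which at 0.132 CPM lay above positive 3 at 0.121. With 102 counts in the positive group, the ratio was 45.7 (12.3 to 382) and the log2 fold change 5.07 ± 1.18 (adjusted p = 0.0212, edgeR, genes with at least 1 count). This call was lost without libraries 6 and 7 (2.80, adjusted p = 0.120, edgeR). Fcgr4 had 0.0513 to 1.48 CPM in positive libraries, median 0.191, and no count in any negative library. Its 61 positive counts make it at least 18.2-fold higher, taking a floor of 3 counts over the negative group. Fcgr4 was the scarcest of the 10 genes in counts, and positive 6 and 7 held 75.4% of them.

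Per kilobase of annotated exon, Fcgr3 had the largest share of the IgG receptor RNA in each positive library. That share was 36.2 to 70.5%, median 55.9%, and it was 46.7% in positive 6 and 46.9% in positive 7. Fcgr4 had a median of 17.3%, Fcgr2b of 15.4% and Fcgr1 of 12.1%. The lead of Fcgr3 over Fcgr2b rests on their annotated exon lengths, 1736 and 5790 bases. In counts Fcgr2b lay above Fcgr3 over the positive group (321 against 250). It did so in positive 1, 6 and 7 and lay below in positive 2 to 5. The order below Fcgr3 is not firm either, since Fcgr4 ranged from 6.09 to 30.0% and Fcgr2b from 11.6 to 22.3%. For the inhibitory receptor against the activating ones, the positive libraries held 321 counts of Fcgr2b and 413 of Fcgr1, Fcgr3 and Fcgr4 together, and the negative libraries 4 and 6. The mean log2 ratio was −0.62 ± 0.47 in positive libraries (SD, n = 7). Negative 1, 2 and 3 had no count of any of the 4 genes, so their ratio is set by the 0.5 added to each count, and no difference between the groups is read from it.

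**Figure D2:**
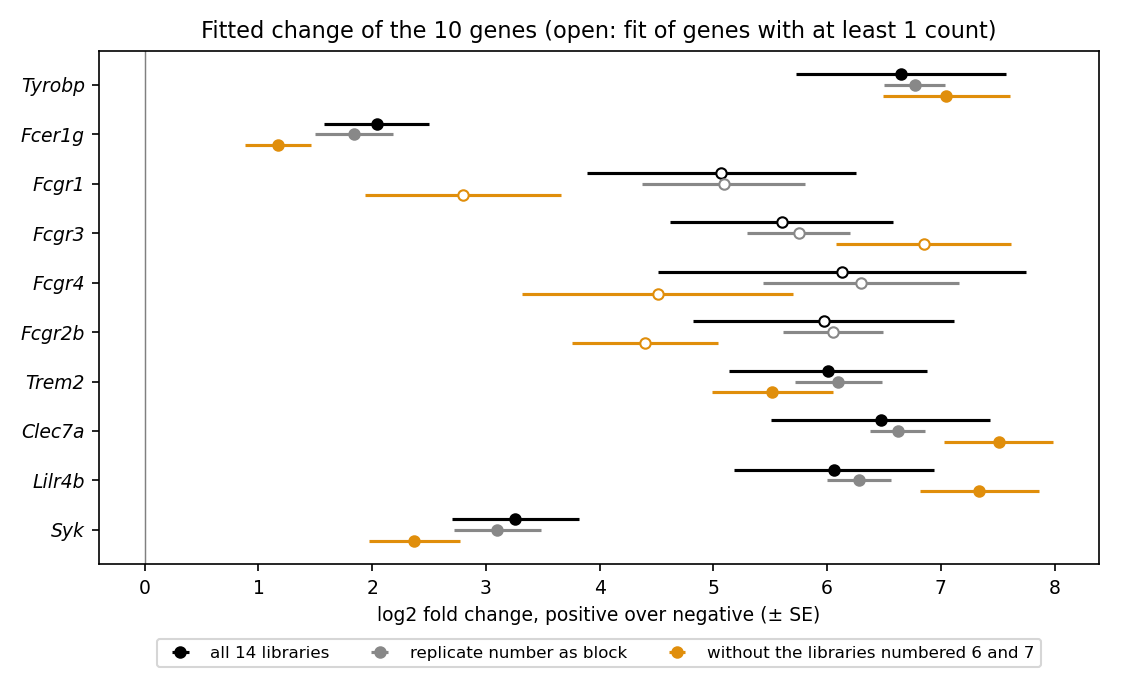
Log2 fold change of positive over negative for each gene. Values are over all 14 libraries, with the replicate number as a block, and without the libraries numbered 6 and 7. Bars are standard errors worked back from the F statistic. Open marks come from the fit of genes with at least 1 count. Every value is above 0, with Fcer1g lowest at 2.04 over all libraries. The fitted size for Fcgr4, which has no negative count, depends on the prior count, as does that of Fcgr3 without libraries 6 and 7.

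Trem2 (chromosome 17, 48346401 to 48354147, plus strand) encodes a receptor for lipids and lipoproteins that signals through DAP12, known from microglia and from lipid-associated macrophages. It had 1.33 to 11.4 CPM in positive libraries, median 1.53, and 0 to 0.158 CPM in negative libraries, median 0. Positive 1 to 5 were nearly level, at 1.33 to 1.55 CPM. The log2 fold change was 6.01 ± 0.87 (SE, n = 7 each, adjusted p = 0.000393, edgeR), on 464 counts in positive and 6 in negative libraries.

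Clec7a (chromosome 6, 129461591 to 129472779, minus strand) encodes dectin-1, a receptor for fungal beta-glucans whose own tail carries a partial ITAM and calls on Syk directly. It had 3.63 to 50.8 CPM in positive libraries, median 6.74, and 0 to 0.522 CPM in negative libraries, median 0.0601. Of its 22 negative counts, 2 were in negative 1 to 5, and the rest were in negative 6 and 7. The log2 fold change was 6.47 ± 0.96 (adjusted p = 0.000676, edgeR), and 7.51 without libraries 6 and 7. GENCODE M21 lists Clec7a as a polymorphic pseudogene, a gene that is intact in some strains and not in others.

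Lilr4b (chromosome 10, 51480632 to 51486703, plus strand) belongs to the leukocyte immunoglobulin-like receptors and lies 4253 bases from Lilrb4a, which encodes an inhibitory receptor with ITIMs. Lilr4b had the most counts of the 10 genes: 5.45 to 59.2 CPM in positive libraries, median 9.76, and 0 to 1.21 CPM in negative libraries, median 0.0427. Of 38 negative counts 23 were in negative 6. Its log2 fold change was 6.06 ± 0.88 (adjusted p = 0.000566, edgeR). Lilrb4a had nearly the same values, with medians of 10.1 CPM in positive and 0.0662 CPM in negative libraries and a log2 fold change of 5.84 ± 0.87 (adjusted p = 0.000675, edgeR). The pair cannot be fully parted, since 24.1% of the 50-base windows of Lilr4b transcripts occur in Lilrb4a, and Lilr4b also shares 122 exonic bases with the overlapping gene Gm49339.

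Syk (chromosome 13, 52583173 to 52648792, plus strand) encodes the kinase that binds phosphorylated ITAMs. It had 2.1 to 19.4 CPM in positive libraries, median 3.75, and 0.132 to 1.24 CPM in negative libraries, median 0.648. Like Fcer1g, it was read in all 7 negative libraries, with 91 counts against 894 in the positive group, and the groups did not overlap. Its log2 fold change was 3.26 ± 0.56 (SE, n = 7 each, adjusted p = 0.0014, edgeR), and 2.37 without libraries 6 and 7 (adjusted p = 0.00383, edgeR). Relative to its adaptors, Tyrobp and Fcer1g summed, Syk had a mean log2 ratio of −0.81 ± 0.30 in positive and −1.21 ± 0.61 in negative libraries (SD, n = 7 each). That difference of 0.40 did not pass (adjusted p = 0.150, exact permutation test) and was positive in 5 of 7 pairs.

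**Figure D3:**
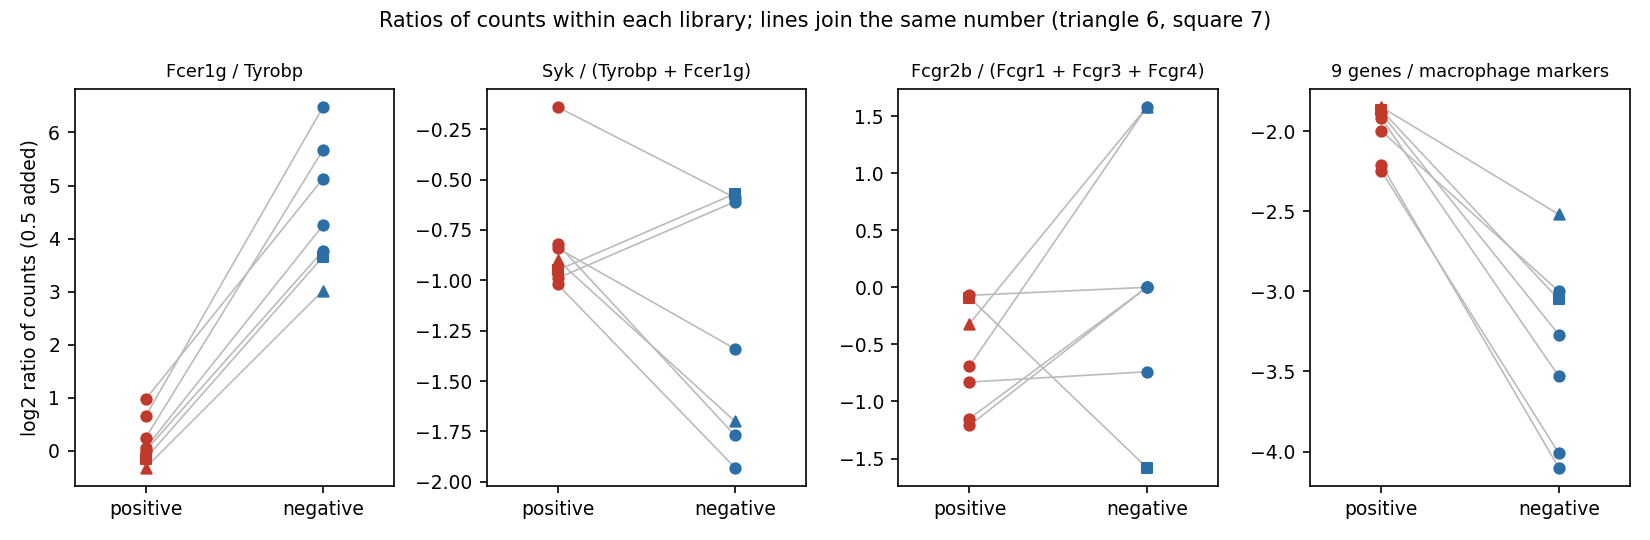
Log2 ratios of counts within each library for the 4 ratios tested, positive left and negative right, with 0.5 added to each count. Each mark is a library and lines join equal numbers. Fcer1g relative to Tyrobp averages 0.20 in positive and 4.57 in negative libraries without overlap, while the Syk ratios overlap. The Fcgr2b ratio of negative 1, 2 and 3 is drawn at 0.00, where no gene in it had a count.

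Levels of the 10 genes can be ordered only per length. Tyrobp had the highest median in positive libraries, 4.54 CPM per kilobase of exon, followed by Fcer1g (3.86), Clec7a (2.56) and Lilr4b (1.79). After a gap came Fcgr3 (0.473), Syk (0.401), Trem2 (0.309), Fcgr4 (0.152), Fcgr2b (0.121) and Fcgr1 (0.1). Neighbours in this order were not always parted: Tyrobp was above Fcer1g in 5 of 7 libraries, Syk above Trem2 in 4 and Fcgr4 above Fcgr2b in 3, while Lilr4b was above Fcgr3 in all 7. In negative libraries the mean of Fcer1g was 1.72 ± 0.667 CPM per kilobase (SD, n = 7), and the next, Tyrobp, had 0.08 ± 0.12. The lengths count all annotated exons, so a gene with a long annotated transcript, such as Trem2, is set low.

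The genes varied together over the positive libraries. Summed over the 10, positive 6 had 194 CPM, positive 7 had 135 and positive 1 to 5 had 18.2 to 33.6, against 1.13 to 4.65 in the negative libraries. Positive 6 and 7 held from 59.7% (Fcer1g) to 79.1% (Fcgr2b) of each gene's positive counts. Their sums of macrophage, endothelial, pericyte and dendritic cell markers were the highest among the positive libraries as well. Set against the summed counts of the 16 macrophage markers, the spread narrowed: the coefficient of variation among positive libraries was 85.3 to 129% in CPM and 14.9 to 49.5% per macrophage count. The other marker sums, also highest in positive 6 and 7, were not tried as denominators. Whether the narrowing is particular to macrophage markers was therefore not tested. Trem2, for instance, had 1.25 to 1.84 counts per 100 macrophage marker counts in positive libraries and 0.245 in the negative libraries together. Tyrobp had 1.84 to 3.57 in positive and 0.286 in negative libraries, whereas Fcer1g had 2.48 to 3.63 in positive and 7.43 in negative libraries.

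As plain sums of counts, the 9 genes other than Syk rose more than the macrophage markers did, a result that rested on a few genes. The mean log2 ratio of their counts to the marker counts was −2.00 ± 0.16 in positive and −3.35 ± 0.57 in negative libraries (SD, n = 7 each), higher in positive in 7 of 7 pairs. The difference of 1.35 passed (adjusted p = 0.00117, exact permutation test). It also passed with exchange only within pairs of equal number (adjusted p = 0.0312, exact permutation test). In the negative libraries, however, 2105 of the 2449 macrophage marker counts belonged to Csf1r, Cd68 and C1qa. Of the 265 counts of the 9 genes there, 182 belonged to Fcer1g. Leaving out these markers and Fcer1g, an alternative chosen after the data were seen, the difference was 1.11 and did not pass (adjusted p = 0.0967, exact permutation test).

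**Figure D4:**
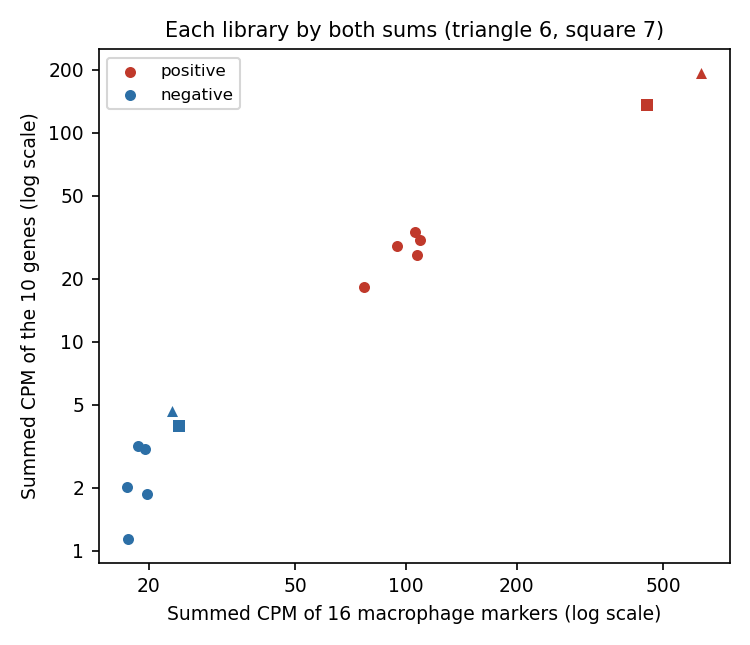
Summed CPM of the 10 genes against those of the 16 macrophage markers in each library, both on log scales. Positive 6 and 7 lie at the top right with 194 and 135 CPM of the 10 genes, positive 1 to 5 between 18.2 and 33.6, and negative libraries between 1.13 and 4.65.

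Markers of other cells that carry these receptors were also read. Of the macrophage markers 13 of 16 passed the filter and all 13 were called higher. For C1qa the call was lost with the replicate block (adjusted p = 0.087, edgeR) and when any 1 negative library or positive 7 was left out. None of the 7 neutrophil markers passed it: they summed to 0.323 to 3.71 CPM in positive and 0 to 0.158 CPM in negative libraries, and Ly6g had no count. DESeq2 tested 1 of them and called it higher, and with at least 1 count and the replicate block 2 of 6 were called. All 7 mast cell and basophil markers, among them Fcer1a and Ms4a2, the other chains of the IgE receptor, had no count in any library. Natural killer cell markers summed to 0 to 0.518 CPM in positive and 0 to 0.648 CPM in negative libraries, with 5 of 8 at 0, Ncr1 included. T cell markers summed to 1.14 to 4.38 CPM in positive and 0.728 to 2.46 CPM in negative libraries, and Cd3e had no count. B cell markers summed to 1.96 to 2.75 CPM in positive and 1.52 to 3.78 CPM in negative libraries. Dendritic cell markers summed to 42.5 and 34.3 CPM in positive 6 and 7 and 7.11 to 12.9 in positive 1 to 5, against 0.683 to 7.03 in negative libraries, so the groups did not overlap. Of these 7 markers 2 passed the filter. Itgax, shared with macrophages, was called higher (6.38), with 2.1 to 37.1 CPM in positive and 0 to 0.427 CPM in negative libraries. Zbtb46 was not called (1.05 ± 0.39, adjusted p = 0.130, edgeR), but it was with the replicate block (1.25 ± 0.35, adjusted p = 0.0372, edgeR), and both markers were called when negative 3 was left out. Cd209a had no count.

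By likeness of profile, the genes nearest to the mean of the 6 members that passed the filter were Apoe, Myo1f, Msr1, Nckap1l, Clec4e, Cd84, Cd53 and Ms4a6d. The measure was the root mean square difference of centred log2 CPM over the 14 libraries, and these 8 lay at 0.24 to 0.36 among 14998 genes of at least 1 CPM. Apoe was nearest at 0.24, with 59.1 to 443 CPM in positive and 4.77 to 11.8 CPM in negative libraries. Of the 6 members, which are themselves part of that mean, Trem2 (0.35) and Tyrobp (0.44) were close to it. Clec7a (0.82, rank 156 among the genes compared) and Syk (0.83, rank 157) were less so. Lilr4b (1.09, rank 268) and Fcer1g (1.31, rank 373) were farthest from it.

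Most of the other Fc receptors were too low to test. Of 13 listed, 3 passed the filter and 1 was called higher, with a median log2 fold change of 0.21. Fcgrt, the neonatal Fc receptor that recycles IgG, had 1.17 to 5.07 CPM in positive and 0 to 1.2 CPM in negative libraries (2.95 ± 0.61, adjusted p = 0.00557, edgeR), and it was not called without libraries 6 and 7 (adjusted p = 0.0946). Pigr, which carries polymeric IgA and IgM across epithelia (0.21), and Trim21, a cytosolic antibody receptor (−0.09), were not called.

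Of 26 other receptors and adaptors of ITAM pathways, 7 passed the filter. Of these 4 were called higher, 1 lower and 2 not, with a median of 1.37. The higher ones included the C-type lectins Clec4e (Mincle), at 6.01 ± 1.07, Clec4d (6.67 ± 0.98) and Clec4n (dectin-2, 5.98 ± 0.98), which bind microbial glycolipids or glycans and use the gamma chain. All 3 had adjusted p of 0.00213 or less (edgeR). The B cell receptor chains went apart: Cd79b was called higher (1.37 ± 0.36, adjusted p = 0.0263, edgeR) and Cd79a lower (−1.45 ± 0.34, adjusted p = 0.012). The call of Cd79b was lost when any of negative 1, 2, 4, 6 or 7 or positive 1, 3 or 7 was left out, and without libraries 6 and 7 (adjusted p = 0.256). Ms4a1, a defining marker of B cells, had 1 count in the positive and 1 in the negative group. Hcst and Cd247 (0.13), the adaptors of natural killer and T cells, were not called.

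Around and downstream of Syk, 26 of 33 signalling genes passed the filter, and 9 were called higher, 0 lower and 17 not, with a median of 0.36. Vav1, a guanine nucleotide exchange factor of blood cells, had 1.17 to 15.6 CPM in positive and 0 to 0.142 CPM in negative libraries (5.77 ± 0.79, adjusted p = 0.000287, edgeR). Pik3ap1 (BCAP, 4.50) and Pik3r5 (2.46), which serve phosphoinositide 3-kinases, followed, then the linkers Lat2 (1.32) and Blnk (1.22). Sh3bp2 (1.10), Fyn (0.81), Lyn (0.78) and Tec (0.37) were also called. Grb2 (0.13), Cbl (0.24), Gab2 (0.38) and Plcg1 (−0.02), expressed in most cells and the highest of the list, were not. With the replicate number as a block 17 were called higher and 1 lower, where 11.8% and 7.77% of all genes were. Without libraries 6 and 7 the calls were Vav1, Pik3ap1, Pik3r5 and Blnk, 4 in all.

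**Figure D5:**
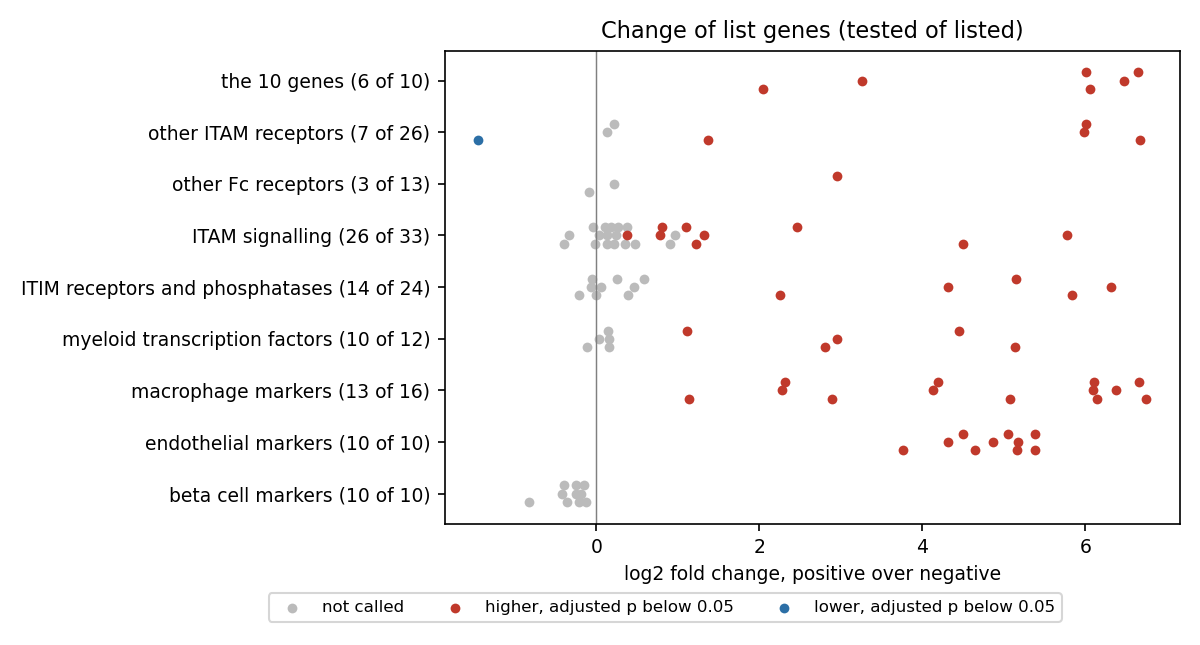
Log2 fold change, positive over negative, of each gene that passed the filter on low counts, by list, with the number tested of those listed. The 6 tested of the 10 genes lie between 2.04 and 6.65, the 13 macrophage and 10 endothelial markers are all called higher, and most signalling genes lie near 0.

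Among 24 inhibitory receptors with ITIMs and the phosphatases and adaptors they recruit, 14 passed the filter, 5 were called higher, 0 lower and 9 not, with a median of 0.43. The called genes were Pirb (6.31 ± 0.99), Lilrb4a, Inpp5d (SHIP1, 5.15 ± 0.61), Cd300a (2.25 ± 0.51) and Pecam1 (4.32 ± 0.53). Pecam1 is also an endothelial marker, and all 10 endothelial markers were called higher. The phosphatases Ptpn6 (SHP-1, 0.05) and Ptpn11 (SHP-2, 0.00), Inppl1 (−0.07) and the receptor Sirpa (−0.06) were not called and had high levels in both groups, such as a median of 132 CPM in positive and 135 CPM in negative libraries for Sirpa. Cd300a was not called without libraries 6 and 7 (adjusted p = 0.174, edgeR).

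Of 12 transcription factors known from myeloid cells, 10 passed the filter, 5 were called higher, 0 lower and 5 not, with a median of 0.63. Spi1, which encodes PU.1, had 0.777 to 5.83 CPM in positive and 0 to 0.158 CPM in negative libraries (5.14 ± 0.78, adjusted p = 0.000467, edgeR). Irf8 (4.45 ± 0.53), Cebpa (2.95 ± 0.45), Runx1 (2.81 ± 0.52) and Irf5 (1.11 ± 0.26) were also called. Without libraries 6 and 7, Runx1 (adjusted p = 0.0845, edgeR) and Irf5 (adjusted p = 0.0946) were not. Cebpb (0.15), Mitf (0.14) and Tfeb (0.15) were among those not called.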

How the data were processed

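RNA of 7 positive and 7 negative libraries was compared. The deposited values are raw counts of reads per gene. Per the submitters' processing notes, reads were placed on GRCm38 with Subread and counted with featureCounts. Versions, annotation, strand setting and the treatment of reads matching several genes are not given in the sources used here, so shared and overlapping sequence is uncertain. Per the labels' protocols, polyadenylated RNA was selected and the libraries were directional.

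Counts were tested with edgeR 4.0.16 (R 4.3.3; filterByExpr, TMM, robust quasi-likelihood F-test, group as the only term), with a call at a Benjamini-Hochberg adjusted p under 0.05. The SE of an edgeR log2 fold change was worked back as its absolute value over the square root of its F statistic, and is approximate. CPM use TMM-scaled totals (factors 0.969 to 1.03). Intervals and floors cover counting error only. Ratios of counts used exact two-sided permutation tests over libraries, adjusted over 4 ratios. These shuffled libraries freely, and with the replicate block only within pairs of equal number. Per-length levels and coordinates used GENCODE M21. The fits were tested on simulated counts, with changes set only in genes above a minimum mean count and the common dispersion used for every gene. That test does not cover genes with almost no negative counts.

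No pair of replicates agreed within sampling noise (lowest chi-square per degree of freedom 5.36). Nothing in the labels ties each library to its own animals. The p-values therefore reflect only how much these libraries vary, and part of that may be technical. Deviations of libraries with equal numbers correlated at 0.203 to 0.541 in all 7 pairs (median of different numbers −0.125), so the numbers in the titles were taken to pair them. The main fits and the free shuffle did not use this pairing. It entered only through the replicate block, an alternative that changed many calls outside the members.

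The members and lists were chosen with earlier results of these data known. Named genes are the members, the 4 highest and the most and least changed called genes of each list, called genes that went against their list, the 8 nearest by profile, and neighbours on the chromosome. Other genes of the lists were named after their values were seen. Alternatives were DESeq2 1.42.0, its size factors, no filter beyond 1 count, the replicate block, non-robust dispersions, another prior count of 1, and libraries left out.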

Additional observations from a re-analysis of the deposited data

Results flagged for a closer look

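Of 28 groups of 7 libraries examined, 4 held a library whose gap to the nearest other exceeded Dixon's 95% critical value, given as a share of the group's range. Chance flags about 1 in 20 groups of normally spread values, which counts near 0 are not. Fcgr1 in negative 4 was at 0.132 CPM and at 0 in every other negative library. Fcgr3 in negative 7 was at 0.19 CPM and at 0 elsewhere in that group. A group with counts in only 1 library is flagged whatever their number, here 2 for Fcgr1 and 4 for Fcgr3. Nothing is read from those flags. Lilr4b in negative 6 was at 1.21 CPM, and the nearest negative library was at 0.522. Syk relative to Tyrobp and Fcer1g had a log2 ratio of −0.14 in positive 1, and the nearest positive library was at −0.82.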

How the results depend on the processing

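The 10 genes gave 156 log2 fold changes under alternatives. All 156 kept their direction and 153 their side of the threshold. The exceptions were Fcgr1, whose call was lost among genes with at least 1 count without libraries 6 and 7 (2.80), and Fcgr4, called with DESeq2 (5.46) and with at least 1 count and the replicate block (6.30). Leaving out each library lost no call of the 6 genes tested, and each of their lowest values came without positive 6. The members called, 6, were 10 with DESeq2 (7.17% of all genes higher) and 10 with at least 1 count and the replicate block.

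With the replicate block alone, 3200 genes were called in place of 1313 (1930 higher, 1270 lower) and 18 of the signalling genes in place of 9. It changed no call of the members, nor of the ratios. DESeq2 called 2078 genes (1600 higher, 478 lower), 19 signalling genes, 8 ITIM genes, 8 other ITAM receptors and 2 other Fc receptors. With at least 1 count, 8 ITIM genes, 8 other ITAM receptors and 2 other Fc receptors were called. The block with that filter called 3429 genes (2009 higher, 1420 lower), 21 signalling genes, 10 ITIM genes, 8 other ITAM receptors and 2 other Fc receptors. Without libraries 6 and 7, 581 genes (536 higher, 45 lower), 4 signalling genes, 3 myeloid factors and 0 other Fc receptors were called. With at least 1 count as well, 730 were (682 higher, 48 lower).

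Leaving out each library in turn gave 965 to 1883 genes called (825 to 1267 higher and 140 to 616 lower). Genes lower numbered 616 when negative 3 was left out, and 160, 140 and 162 when positive 3, 6 or 7 was. Signalling genes called were 9 to 14, the 14 without negative 3, ITIM genes 5 to 6, members 6 to 8, other ITAM receptors 4 to 5, myeloid factors 5 and other Fc receptors 1. The Fcer1g ratio ranged from −4.62 to −4.05, the Fcgr2b ratio from −1.03 to −0.50, the Syk ratio from 0.29 to 0.51 and the macrophage ratio from 1.23 to 1.49. The Fcgr2b difference was −0.74 in all libraries (adjusted p = 0.150, exact permutation test) and −0.96 without libraries 6 and 7 (adjusted p = 0.0317), but 3 negative libraries have no count of its genes, so this test is void. The macrophage ratio did not pass without Csf1r, Cd68, C1qa and Fcer1g (1.11). Depth limits Fcgr4, Fcgr1 and the other genes with 0 to 7 negative counts, whose fold sizes are loose. The alternatives with at least 1 count and a second change, and that macrophage ratio, were chosen after the data were seen.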
